A study of Ginkgo biloba with 6 samples.

Results

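The gene IDs described here are 74 of the 26044 in an expression table of Ginkgo biloba leaves, those whose level was lower in every library from truncated trees than in every library from uncut trees. They were chosen by the measured values themselves. An ID with a Gb number was eligible if its mean over the 6 libraries reached 1 FPKM, unless it was among the 100 Gb IDs of highest mean, which left 15688 IDs. FPKM counts sequenced fragments per transcript length and per mapped fragments of the library. Of the eligible IDs, those were taken whose highest truncated value lay below the lowest control value and whose group means differed by at least 1 on the scale of log2(FPKM + 1). That size is a 2-fold change for abundant transcripts and a larger one for weak transcripts. The separation of the groups is therefore a condition of membership, and it is described below without a test.

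The libraries came from leaves of the cultivar Fozhi, taken from 5-year-old trees of a nursery planted for leaf harvest at 0.6 m by 0.6 m. In the truncated group 30 trees had their trunks shortened to 85 cm above the ground, and in the control group 30 trees were left uncut. Leaves of both groups were sampled at the harvesting stage, and each group gave 3 libraries, lettered A, B and C. How many trees went into a library is not stated, so the spread between libraries may be partly technical.

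Cutting back a trunk removes the older shoots, and the leaves that follow grow on young shoots from buds lower down. Such regrowth is used in tree nurseries to keep plants in a juvenile state, and ginkgo leaves are grown for flavonol glycosides and terpene lactones. Flavonols are made from phenylalanine through phenylpropanoid intermediates, with chalcone synthase as the entry enzyme of the flavonoid branch. The files do not pair the IDs with gene names, so no member could be placed in that pathway, the leaf origin could not be checked against marker genes, and each member is known here by its ID.

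Some libraries stood apart irrespective of treatment. Over the eligible IDs, control B was the highest control for 51.6% and truncated C the highest truncated library for 52.4%, and the deviations of these libraries from their group means correlated at 0.68 across IDs. Relative depth, read from the most frequent FPKM ratio to control A among weak IDs, was between 0.934 and 1.09 of control A in all libraries. For the 15 IDs named by the choices listed under processing, differences were also read without control B and without truncated C. Where that moved a difference by over 1.5 times, the value without the library is given. For other IDs mentioned no such value is given.

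The 74 IDs were together a small share of the leaf transcript pool, and that share was lower in each truncated library. Their summed level was 2445 FPKM in control A, 2172 in control B and 2029 in control C. Truncated A had 1213 FPKM, truncated B 763 and truncated C 631. The rule fixed the order of the sums, since each member had to be lower in every truncated library than in every control. Means were 2216 ± 212 FPKM in control and 869 ± 305 FPKM in truncated leaves (SD, n = 3). As a share of all FPKM, the members held 0.299% to 0.354% in control and 0.0963% to 0.178% in truncated libraries. The rule likewise fixed that the typical member was higher in each control than in each truncated library. The median over the 74 IDs was 12.5, 14.1 and 11.3 FPKM in control A, B and C and 6.62, 3.65 and 2.70 FPKM in truncated A, B and C. In RNA from whole leaves, fewer cells of a type and less RNA per cell cannot be told apart.

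**Figure D1:**
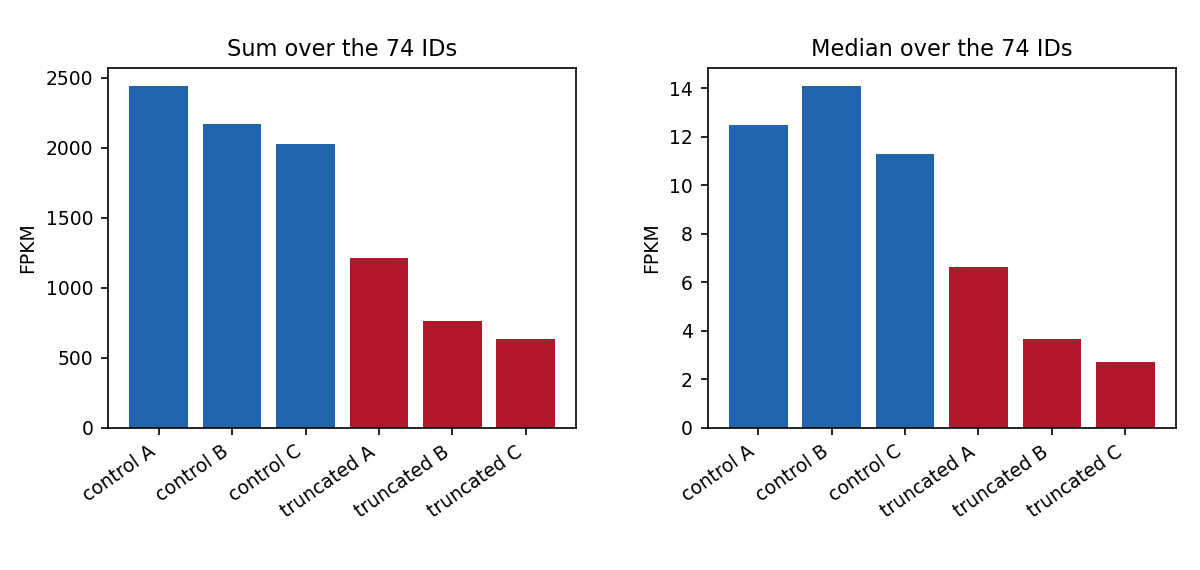
Summed (left) and median (right) FPKM of the 74 IDs in each library, 1 bar per library, control in blue and truncated in red. By the rule, every truncated bar is lower than every control bar. Truncated A, at a sum of 1213 FPKM, is the highest of the truncated bars.

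Members were spread over the range of expression in much the way of the eligible IDs. By their mean over 6 libraries, 24 members had 1 to 5 FPKM, 42 had 5 to 50 FPKM and 8 had at least 50 FPKM. These are 32.4%, 56.8% and 10.8% of the members, beside 39.8%, 49.3% and 11.0% of the eligible IDs. The control mean was 2.75 times the truncated mean for the median member, with a range of 1.94 to 13.2 times. The highest ratio belonged to Gb_09918, a weak ID with 0.66, 3.04 and 2.09 FPKM in the controls and 0.44 FPKM in truncated A, and listed at 0 in truncated B and truncated C. Gb_18189 was also listed at 0 in truncated B. The rule admits no member at 0 in a control library, since every control value must exceed the highest truncated value. Gb_09918 and Gb_18189 were singled out after their values were seen. None of the 74 shared all 6 values with another ID, as 89 of the eligible IDs did.

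The rule picked 0.472% of the eligible IDs. Groups that did not overlap, with truncated leaves lower, were found at any size of difference for 1086 eligible IDs (6.92%), and the members are the 6.81% of these with a difference of at least 1. In the opposite direction 1124 IDs did not overlap and 228 of them (20.3%) differed by at least 1. That contrast of 74 lower with 228 higher IDs was not tested, and it varied with the libraries used. Without truncated C the mirrored rule took 302 higher IDs beside 327 lower ones. Without control B and truncated C together it took 308 beside 129. The number chosen rose most when truncated A or truncated C was left out. Applied without truncated A the rule took 182 IDs, among them all 74 members. Applied without truncated C it took 327, among them 51 of the members. Applied without truncated B it took 78, among them 54 of the members. Without control B and truncated C together it took 129 IDs, again with 51 of the members.

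None of the 74 passed correction in the fit over all 16054 IDs whose mean reached 1 FPKM. By limma, 0 members had a Benjamini-Hochberg adjusted p under 0.05, against 0% of all IDs in the lower direction, and the smallest adjusted p of a member was 0.385. At an unadjusted p under 0.05 there were 72 members, against 2.57% of all IDs lower in truncated leaves. As the members were chosen on this contrast, nothing can be read from that excess.

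Differences of the group means ran from 1.01 to 2.66 on the log2(FPKM + 1) scale, with a median of 1.25, and the median over all eligible IDs was 0.05. Just inside the limit of 1 were Gb_24907, at 1.01, and Gb_10892, at 1.02. Just outside it were Gb_03334 and Gb_14514, at 0.999 and 0.998, which therefore differed hardly at all from the weakest members. Without truncated C the difference of Gb_10892 was 0.58 and that of Gb_14514 was 0.61. Gb_03334 had 43.8, 37.9 and 31.3 FPKM in control A, B and C and 20.2, 15.2 and 19.6 FPKM in truncated A, B and C. The empty space between the groups, from the lowest control to the highest truncated value, was 0.49 for the median member and ranged from 0.04 to 1.09.

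**Figure D2:**
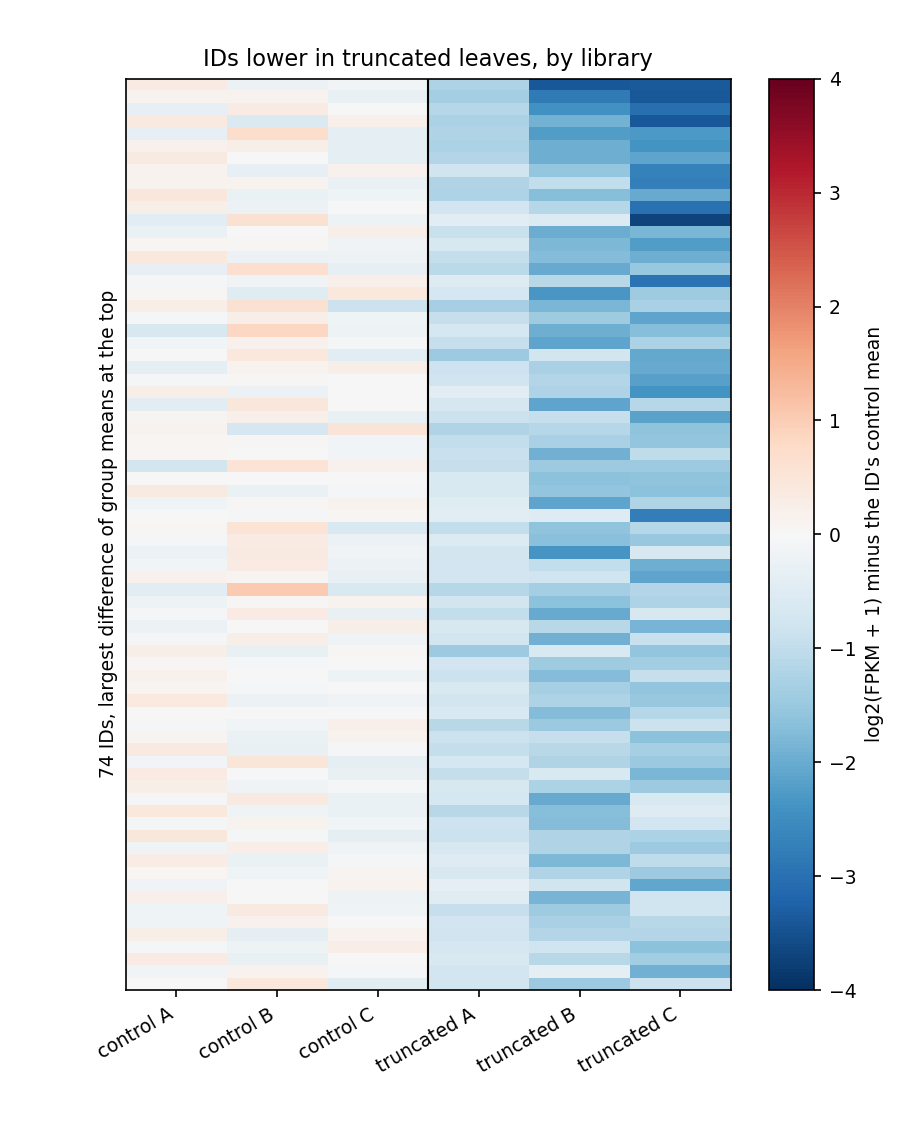
Level of each of the 74 IDs (rows) in each library (columns) as log2(FPKM + 1) minus the control mean of the same ID, with blue below and red above that mean. Rows run from the difference of 2.66 at the top to 1.01 at the bottom, and the truncated A column is paler than those of truncated B and truncated C in most rows.

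The most abundant members were a pair with close numbers and Gb_07108. Gb_23841 had 411, 265 and 285 FPKM in control A, B and C and 188, 134 and 109 FPKM in truncated A, B and C. Gb_23837 had 276, 172 and 179 FPKM in the controls and 104, 60.9 and 52.3 FPKM in the truncated libraries, in the same order. Gb_07108 had 223, 133 and 143 FPKM in the controls and 68.5, 49.6 and 39.8 FPKM in the truncated libraries. In all 3 IDs control A was the highest of the controls, truncated A the highest and truncated C the lowest of the truncated libraries. The control mean was 2.23 times the truncated mean for Gb_23841, 2.88 times for Gb_23837 and 3.16 times for Gb_07108. Their differences on the log2(FPKM + 1) scale were 1.16, 1.55 and 1.64. Without control A and without truncated C the difference of Gb_23841 was 0.97 and 0.98, under the limit of 1. In the same settings it was 1.33 and 1.35 for Gb_23837, and 1.41 and 1.46 for Gb_07108.

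Numbers next to this abundant pair held further abundant IDs that stayed outside the rule. Gb_23836 had a mean of 395 ± 73 FPKM in control and 249 ± 38 FPKM in truncated leaves, and Gb_23840 had 444 ± 86 and 270 ± 47 FPKM (SD, n = 3). Their differences, 0.66 and 0.71 on the log2(FPKM + 1) scale, were below the limit. Gb_23835, next in the numbering, had 32.2 ± 2.6 and 29.2 ± 3.9 FPKM with a difference of 0.14, and Gb_23838 was close to 0 in every library. These IDs were looked up for their numbers. Whether the abundant ones are copies that share reads was not tested.

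The largest differences on the log2(FPKM + 1) scale, which shows less than the fold change of weak IDs, were found in IDs of moderate abundance. Gb_26961 had 22.0, 14.4 and 15.8 FPKM in control A, B and C and 6.62, 0.73 and 0.77 FPKM in truncated A, B and C. Gb_25545 had 34.2, 34.5 and 25.3 FPKM in the controls and 11.4, 3.50 and 2.04 FPKM in the truncated libraries. Gb_15955 had 20.8, 32.9 and 25.9 FPKM in the controls and 11.2, 4.04 and 2.33 FPKM in the truncated libraries. All 3 had truncated A in between, with controls high and truncated B and C low. For Gb_26961 the control mean was 2.63 times the level in truncated A but 23.8 and 22.6 times those in truncated B and truncated C. For Gb_25545 the same ratios were 2.76, 8.95 and 15.4, and for Gb_15955 they were 2.37, 6.56 and 11.4. The group differences were 2.66, 2.53 and 2.20 on the log2(FPKM + 1) scale, and Gb_28651, described below, at 2.17, was the only other member at 2 or more. Gb_25545 and Gb_26961 also had the widest empty space between the groups, 1.09 and 1.02, followed by Gb_07108 with 0.95. By the ratio of control to truncated mean the order was another. The weak IDs Gb_09918 and Gb_25548, at 13.2 and 6.73 times, stood above Gb_26961 at 6.43 times.

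**Figure D3:**
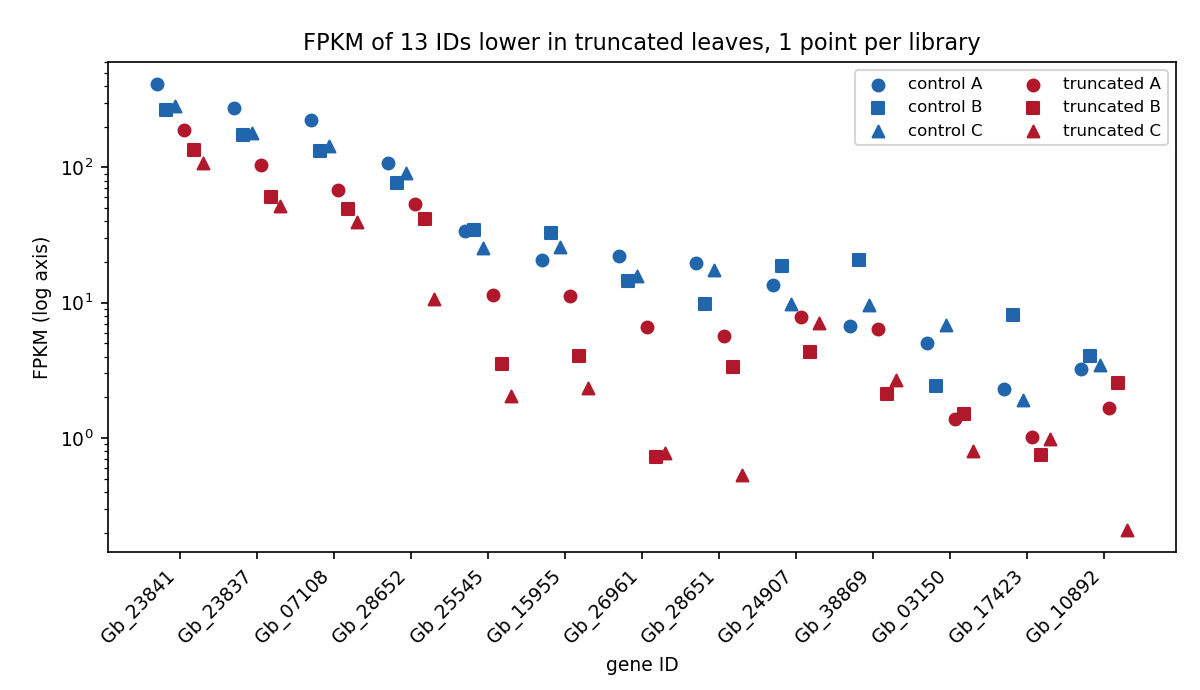
FPKM on a log axis of the 13 members named by the rule for named genes, 1 point per library, control libraries in blue and truncated in red, with circles for letter A, squares for B and triangles for C. In Gb_26961, Gb_25545 and Gb_15955 truncated A, at 6.62 to 11.4 FPKM, lies between the controls and the other truncated libraries.

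The truncated libraries did not share the low level of these IDs evenly. Truncated A was the highest of the 3 for 60 of the 74 members, truncated C for 8 and truncated B for 6. Truncated A was the lowest for 0 members, truncated B for 32 and truncated C for 42. This share of 81.1% for truncated A compares with 58.3% among the 1012 IDs that were also lower without overlap but by less than 1, and with 22.6% among all eligible IDs. Truncated C, most often the highest of its group over all eligible IDs, was the highest for 10.8% of the members. The rule reads all 6 values, so these shares are a description. With the members chosen again without control B and truncated C, truncated A was above truncated B for 92.2% of 129 IDs. That share is over 2 libraries and is not comparable with 81.1%. Truncated B was also often low over all eligible IDs, the lowest of its group for 54.1%, beside 17.2% for truncated A.

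**Figure D4:**
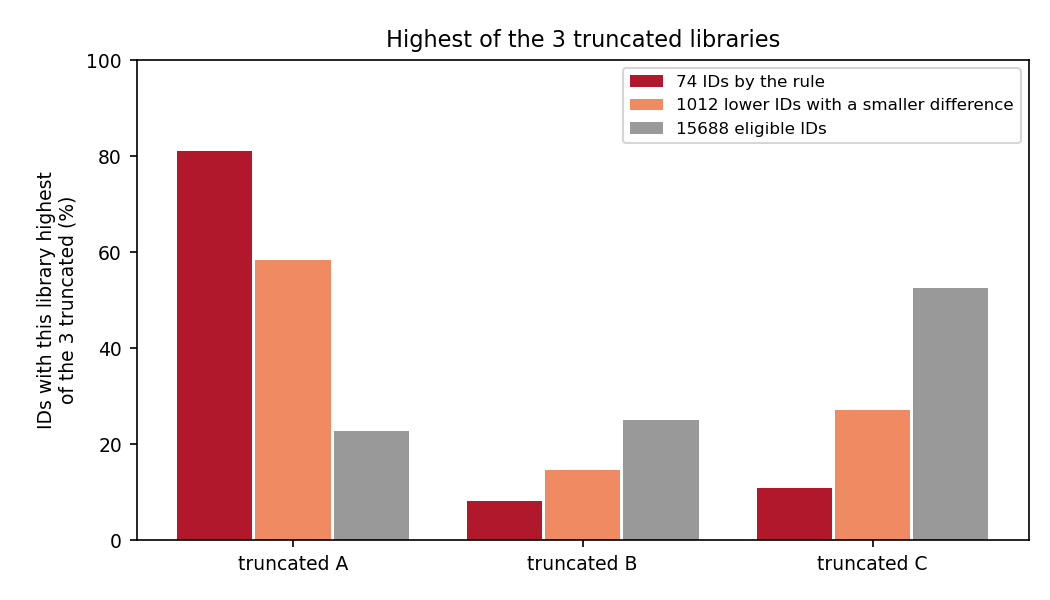
Percentage of IDs for which each truncated library was the highest of the 3, for the 74 members, for the 1012 IDs lower without overlap by less than 1, and for all 15688 eligible IDs. Truncated A leads with 81.1% of members and truncated C with 52.4% of eligible IDs.

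Distances from the control mean gave the same order. Truncated A lay 0.79 below the control mean for the median member, truncated B 1.46 below it and truncated C 1.57 below it, on the log2(FPKM + 1) scale. A distance of at least 1 was reached by truncated A in 17 members, by truncated B in 61 and by truncated C in 63. All 3 truncated libraries were at that distance for 12 members, among them Gb_07108, Gb_26961, Gb_25545 and Gb_15955. For 38 members, the largest class, truncated B and truncated C were at that distance and truncated A was not, and Gb_23841 and Gb_23837 belonged here. The remaining members were at that distance in truncated C alone (10), in truncated B alone (9), in A and C (3) and in A and B (2). The 3 were Gb_00021, Gb_18924 and Gb_40308, and the 2 were Gb_28163 and Gb_18189, named because the classes are small.

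Members low in a single library show how far 1 library can carry a mean. Gb_10410, singled out after its values were seen, had 32.8, 67.4 and 38.6 FPKM in control A, B and C, 31.9 and 29.7 FPKM in truncated A and B, and 2.48 FPKM in truncated C. Truncated A and B thus almost met control A, and the empty space between the groups, 0.04, was the narrowest of all members. Gb_10892, a weak ID just inside the limit, had 3.26, 4.07 and 3.44 FPKM in the controls, 1.67 and 2.53 FPKM in truncated A and B, and 0.21 FPKM in truncated C. In both, truncated C was far below the other 5 libraries. Truncated A and B lay 0.46 and 0.55 below the control mean of Gb_10410 on the log2(FPKM + 1) scale, and the difference of Gb_10892 without truncated C was 0.58 in place of 1.02. Truncated C was lower than truncated B by at least 1 for 15 members, and truncated B lower than truncated C by as much for 6.

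The spread within truncated leaves was wide over the members. A difference of means of at least 1 can be reached through 1 very low library, so this spread depends on the choice. The SD of log2(FPKM + 1) over 3 libraries had a median of 0.59 in truncated and 0.27 in control leaves over the members, beside 0.34 and 0.23 over the eligible IDs. It was larger in truncated leaves for 61 members (82.4%), and for 72.2% of eligible IDs.

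Among the controls the lead depended on which libraries took part in the choice. Control B was the highest for 31 members (41.9%), control A for 28 and control C for 15. Over the eligible IDs control B was the highest for 51.6%. When the members were chosen again without truncated C, control B was the highest for 85.6% of 327 IDs. With scaling by the median of ratios, which divides each library by its median ratio to the mean library, the share of control B among members chosen again was 31.9%, and with scaling to an equal sum it was 50%. The joint deviation of control B and truncated C, correlated at 0.68 across eligible IDs, was at 0.17 across the 74 members. The rule admits no ID with truncated C above a control, which can lower this correlation. Nothing is therefore read from the smaller value.

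Some members had control B far from the other controls. Gb_17423 had 2.30, 8.17 and 1.92 FPKM in control A, B and C and 1.01, 0.75 and 0.99 FPKM in truncated A, B and C. Gb_38869 had 6.70, 20.7 and 9.59 FPKM in the controls and 6.36, 2.10 and 2.68 FPKM in the truncated libraries. Control B was the highest of all 6 libraries in both, and without it the difference of Gb_17423 was 0.70 in place of 1.22 and that of Gb_38869 was 1.04 in place of 1.47. Truncated A nearly reached control A in Gb_38869. The opposite was seen in Gb_03150, with 5.07, 2.42 and 6.83 FPKM in the controls and 1.39, 1.5 and 0.80 FPKM in the truncated libraries. There control B was the lowest control, 1.01 below the mean of control A and control C on the log2(FPKM + 1) scale.

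Members close to each other in the ID numbering were counted without a like count over all eligible IDs. These counts are therefore called neither few nor many. The only members with consecutive numbers were Gb_28651 and Gb_28652. Gb_28651 had 19.6, 9.72 and 17.4 FPKM in control A, B and C and 5.67, 3.33 and 0.53 FPKM in truncated A, B and C. Gb_28652 had 109, 77.2 and 90.6 FPKM in the controls and 53.7, 41.3 and 10.6 FPKM in the truncated libraries. The order of all 6 libraries was the same in both IDs, with control B the lowest control and truncated C the lowest of all. Without truncated C the difference of Gb_28651 was 1.57 in place of 2.17, and that of Gb_28652 was 0.94 in place of 1.62, which is under the limit. The weak ID before them, Gb_28650, was not a member and also had its lowest value in truncated C, with 3.27, 2.57 and 2.71 FPKM in the controls and 2.35, 1.60 and 0.26 FPKM in the truncated libraries.

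A further 7 pairs of members lay within 10 numbers of each other, 8 pairs in all. Gb_28917, Gb_28920 and Gb_28923 formed 3 of these pairs, and Gb_05238 with Gb_05241, Gb_17423 with Gb_17428, Gb_23837 with Gb_23841 and Gb_25545 with Gb_25548 formed the others. The pairs were listed after the values were seen. Such pairs were not counted over all eligible IDs, so nothing is read from their number. Close numbers did not always mean a shared profile. In Gb_05238, with 7.56, 5.07 and 2.73 FPKM in truncated A, B and C, truncated C was the lowest, and in Gb_05241, with 20.2, 7.66 and 21.7 FPKM, truncated B was. Of the 65 eligible IDs that bordered a member by number without being members, 9 (13.8%) were lower in truncated leaves without overlap, beside 6.92% of all eligible IDs. The median difference of these 65 was 0.08, beside 0.05 for all eligible IDs.

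The rule was also applied to 4 libraries, with 1 control and 1 truncated library withheld, and the difference between the withheld pair was read. All libraries had taken part in choosing the 74, so this reading cannot show whether that choice holds in other leaves. It describes only how the rule behaves between these libraries. The IDs chosen in this way are not the same 74, since 93 to 707 were taken and 48 to 72 of the members were among them. In 7 of the 9 pairs the chosen IDs were lower in the withheld truncated library, by a median of 0.29 to 0.87 on the log2(FPKM + 1) scale, where medians over the eligible IDs of the same pairs ran from -0.04 to 0.28. When control A and truncated B were withheld, 81 of 94 chosen IDs (86.2%) were lower in truncated B, beside 61.0% of the eligible IDs, with medians of 0.87 and 0.13. When control C and truncated A were withheld, 190 of 229 (83.0%) were lower in truncated A, beside 50.7%, with medians of 0.41 and 0.01. The shares were closest when control B and truncated B were withheld, with 69 of 93 chosen IDs (74.2%) lower in truncated B beside 64.0% of the eligible IDs, and medians of 0.70 and 0.28. These withheld differences were smaller than the limit of 1 that the choice itself had imposed.

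In 2 of the pairs the direction was the opposite. When control A and truncated C were withheld, 95 of 707 chosen IDs (13.4%) were lower in truncated C, with a median difference of -1.02, beside 37.5% and -0.18 for the eligible IDs. When control C and truncated C were withheld the figures were 101 of 662 (15.3%) and -1.16, beside 41.2% and -0.11. In both cases control B took part in the choice and truncated C did not. When control B and truncated C were withheld together, 108 of 129 chosen IDs (83.7%) were lower in truncated C, beside 49.6% of eligible IDs, with a median of 0.67. The 9 pairs share libraries and are not independent, and no test was made over them.

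**Figure D5:**
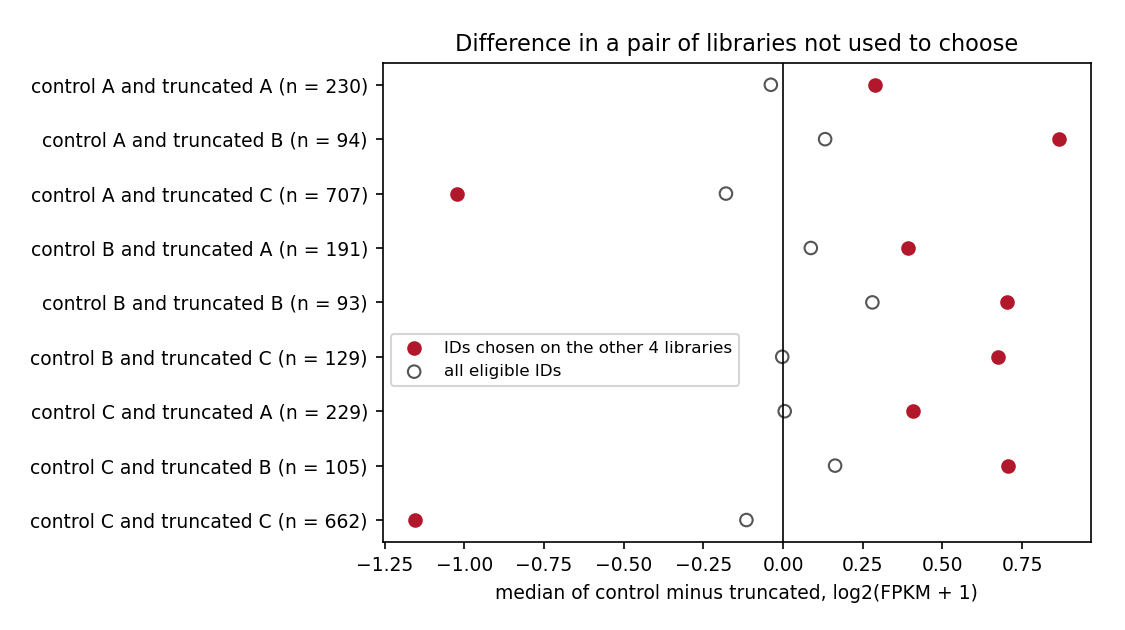
Median of control minus truncated log2(FPKM + 1) in a withheld pair of libraries, 1 row per pair with the number of chosen IDs, for IDs chosen on the other 4 libraries (filled) and for all eligible IDs (open). Filled points lie at 0.29 to 0.87 in 7 rows and at -1.02 and -1.16 in the rows that withheld truncated C with control A or control C.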

How the data were processed

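Leaf RNA of 3 control and 3 truncated libraries was analysed. The values are FPKM as deposited by the authors, per the file headers, 1 column per library. CASAVA 1.8, TopHat2 and RSEM are named in the submitters' processing notes, without role or order, and the genome build is not given in the sources used here. No per-sample column was unused (0). Groups came from the treatment labels. Fragment numbers are not recorded. Relative depth was taken as the most frequent FPKM ratio to control A among IDs of 0.3 to 1.5 FPKM in both libraries, which assumes a like length correction in all libraries, so no counting intervals are given. FPKM depends on the other transcripts of a library, and a few abundant ones can lower all others.

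The rule used log2(FPKM + 1), a scale on which weak IDs show less than their fold change. The test across all IDs was limma 3.58.1 in R 4.3.3 (group term, mean trend, two-sided, Benjamini-Hochberg, threshold 0.05), and the rest used Python 3.11.15. The rule, the fit and the estimate of depth were each tested on simulated tables. Named were the 3 members of highest control mean, the 3 of largest difference, the 3 of widest gap, the 2 inside and 2 outside the limit, the longest run of numbers, and the 2 of lowest and of highest control B. Members, rules and alternatives were chosen with earlier results of these data known. Gene lists needed names, and 0 were computed.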

Additional observations from a re-analysis of the deposited data

How the results depend on the processing

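The number of IDs chosen, 74, was 120 and 156 with pseudocounts of 0.5 and 0.1, which weight weak IDs more, 346 and 4 with a limit of 1.5-fold and of 4-fold, and 78 to 327 without single libraries. It was 129 without control B and truncated C. Scaling by quantiles, by the median of ratios and to an equal sum gave 72 to 86, and the filters of 5 FPKM, 0.1 FPKM and none gave 50 to 77. The count of members passing limma stayed at 0 in all 17 alternatives, with smallest adjusted p-values of 0.283 to 0.992. With the letter as a replicate block it was also 0, with 68 members at an unadjusted p under 0.05. The letters are not stated to pair libraries, deviations of the same letter correlated at 0.19, -0.58 and -0.55 for A, B and C, and 0 of the 3 controls correlated best with the truncated library of its letter.

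The share with truncated A highest, 81.1%, was 90.0% with the filter of 5 FPKM, 100% of the 4 IDs at 4-fold, 92.2% without control B and truncated C, and 67.3% to 94.9% without single libraries. The share with control B highest was 37.2% to 85.6% without single libraries. Where 1 library of a group is left out, that share is over 2 libraries. The median deviation from the group mean was 0.03 for control A and for control B, and ranged from -0.351 to 0.068 and from 0.0044 to 0.686 without single libraries. Both extremes of control B's share and deviation came without truncated C or truncated B. The median withheld difference, 0.41 over 9 pairs, was -1.02 and -1.16 in 2 of them; the cause was not tested. The 165 alternative differences of the 15 named IDs were all positive, 0.58 to 3.37. The choice of non-overlapping groups fixes that direction in most settings. Gene lists could not be computed. Unrecorded fragment numbers limit what can be said of weak IDs.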
